A study of Homo sapiens with 12 samples.

Results

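The comparison described here is the effect of an siRNA against ERRγ in LNCaP cells that received no androgen. Its members are all samples whose titles carry LNCaP_siERRg_vehicle or LNCaP_siCtl_vehicle, which are 6 of the 12 arrays of the series, 3 with each siRNA. LNCaP is an established human prostate cancer line that depends on androgen. Per the labels, the cells of all groups were kept in medium without phenol red that held 2% steroid-deprived serum. They received a control siRNA or the ERRγ siRNA by transfection, were reseeded after 48 h, and then had ethanol (the vehicle) for 72 h. A second pair of groups, also of 3 arrays each, went through the same steps but received 10 nM of the synthetic androgen R1881 in place of vehicle. Neither the sequences nor the number of the siRNAs is given here, and the labels call the samples only triplicates. The p-values therefore measure a spread between samples that may be no more than technical. RNA was taken from whole cultures, so fewer cells holding a transcript and less of it per cell cannot be told apart.

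ERRγ, encoded by *ESRRG*, is an orphan nuclear receptor: it binds DNA and drives transcription without a known natural hormone. It shares its DNA element with ERRα (*ESRRA*) and ERRβ (*ESRRB*), and the coactivators PGC-1α (*PPARGC1A*) and PGC-1β (*PPARGC1B*) raise its activity. In heart, muscle and brown fat the family is known for sustaining genes of the respiratory chain, the TCA cycle and fatty acid oxidation. The series title describes ERRγ as repressed by androgen in prostate cancer cells, and the comparison in vehicle addresses what depleting it changes where no androgen was added.

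In vehicle, 43 genes were lower and 3 were higher with the ERRγ siRNA than with the control siRNA, out of 17123 tested. The largest falls among the named genes included the small nucleolar RNA *SNORD13* (3.46-fold lower), the snoRNA host gene *SNHG9* (3.51-fold lower), the cytoplasmic RNA *BCYRN1* (2.46-fold lower) and the 5S ribosomal RNA *RNA5S9* (2.08-fold lower). The metal-binding protein gene *MT1G* (2.55-fold lower) and the DNA repair gene *TDP1* (2.26-fold lower) also fell. The fall of *TDP1* was read on its brightest probe, and its 2 other probes did not show it. These sizes depend on the scaling: in the authors' normalized table *SNORD13* was 1.32-fold lower, *SNHG9* 2.91-fold, *BCYRN1* 1.66-fold, *RNA5S9* 1.31-fold, *MT1G* 1.62-fold and *TDP1* 1.87-fold. No member of 39 lists of metabolic, growth, stress and cell type genes was called, ERR targets and respiratory chain genes included. The lists held 1056 tested genes, and 0.269% of all genes were called. At a share this low, 0 calls cannot set a single list apart from all genes. *ESRRG* itself was not above background on any array.

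A gene was called when its adjusted p was under 0.05 in limma's moderated test over all genes. By that rule 46 genes (0.269%) were called, 3 higher (0.0175%) and 43 lower (0.251%). Of the 46, 29 had a gene name and the other 17 only a LOC or HS. number, where 13054 of the 17123 tested genes had a name. By size, 37 of the 46 differed by at least 1.5-fold. At least a 2-fold difference was measured for 42 of all genes tested, each of them lower with the ERRγ siRNA, and 14 of these were called. At an unadjusted p under 0.05 there were 2656 genes (15.5%), of which 1193 were higher (6.97%) and 1463 lower (8.54%). The median log2 change over all genes was 0.00666, and 48.4% of genes lay below 0. Quantile normalization gives every array the same distribution of signals, so these values cannot show a shift of the bulk of genes. The count moved with the arrays used. It was 2, 4 and 1 without control siRNA replicates 1, 2 and 3, and 5, 83 and 3 without ERRγ siRNA replicates 1, 2 and 3. Leaving out an R1881 array, which enters this comparison only through the pooled spread, gave 192 and 123 calls without control siRNA replicates 1 and 2 and 28 to 37 without the others. The split also moved with the scaling: the authors' normalized table gave 67 higher and 112 lower genes, raw signals without background correction 175 and 307, and a background offset of 50 gave 129 and 311.

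**Figure D1:**
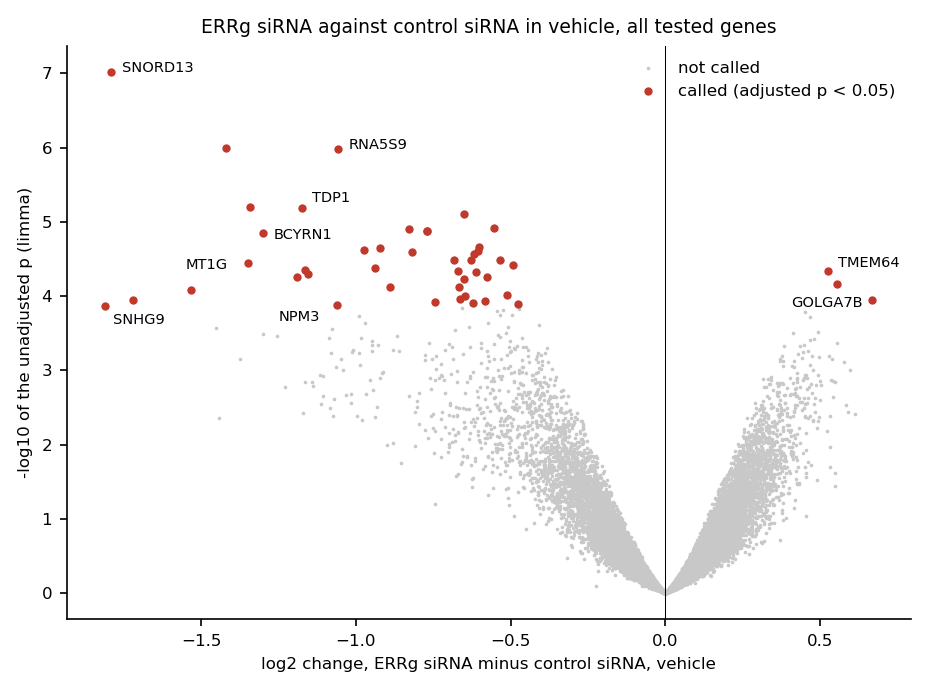
Each point is 1 of the 17123 tested genes in vehicle, with the log2 change (ERRγ siRNA minus control siRNA) on the horizontal axis and the negative log10 of limma's unadjusted p on the vertical axis. Red points are the 46 called genes: 43 lie left of 0, down to -1.81, and 3 lie right of it.

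The check of the target came out below the array's range. The 3 probes for *ESRRG* had detection p-values above 0.05 on every one of the 12 arrays, the lowest being 0.0623. On that probe the raw signals in vehicle were 95.81, 94.64 and 95.92 with the control siRNA and 99.9, 87.92 and 90.95 with the ERRγ siRNA. The groups overlapped. The normalized log2 difference was -0.12 for it (exact two-sided permutation p = 0.4) and -0.06 and -0.005 for the other probes (exact p = 0.3 and 1), where 3 arrays against 3 cannot give a p below 0.1. The arrays thus neither show nor bound the depletion of *ESRRG*. *ESRRB*, *PPARGC1A* and *PPARGC1B* were not detected on any of the 6 vehicle arrays either. *ESRRA* was the family member detected on all 6. On the normalized log2 scale *ESRRA* read 7.32, 7.40 and 7.46 with the control siRNA and 7.36, 7.24 and 7.37 with the ERRγ siRNA. The log2 difference was -0.07 ± 0.18 (95% interval, adjusted p = 0.73 by limma).

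Of the 27 named genes that fell, 15 were protein-coding by RefSeq biotype. That count leaves out names for which no biotype was found, of which *PIP5K2B* and *FLJ44124* are annotated as mRNAs. Over all 17123 tested genes, 11958 were protein-coding and 13054 had a name. The called genes whose transcripts work as RNA are described first. *SNORD13*, which guides a modification of the small ribosomal subunit's RNA, read 6.6, 6.56 and 6.63 with the control siRNA and 4.68, 4.78 and 4.94 with the ERRγ siRNA. The groups lay far apart, with a log2 change of -1.79 ± 0.38 (95% interval) and the lowest adjusted p of the comparison (0.00162, limma). *SNHG9*, the host transcript of a small nucleolar RNA, read 10.44, 10.62 and 10.56 against 8.35, 9.20 and 8.63. Its log2 change of -1.81 ± 0.74 was the largest of the called genes, at an adjusted p of 0.0499 (limma). *BCYRN1*, a small cytoplasmic RNA made by RNA polymerase III and best known from neurons, read 8.46, 8.42 and 8.66 against 7.22, 7.21 and 7.22, a log2 change of -1.30 ± 0.42 with the 3 ERRγ siRNA arrays almost alike. *RNA5S9*, a copy of the polymerase III-made 5S ribosomal RNA, read 7.19, 7.13 and 7.52 against 6.18, 6.16 and 6.33 and fell by 1.06 on the log2 scale (adjusted p = 0.00594, limma). *TRK1*, listed as a lysine tRNA, fell by 1.15, from 6.68, 6.73 and 6.74 to 5.53, 5.50 and 5.66. Without background correction *TRK1* differed by -0.55, and in the authors' normalized table by -0.32.

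Small nuclear RNAs, the RNA parts of the spliceosome and of related particles, lay below 0 in 10 of 10 tested members (48.4% of all genes), with a median log2 change of -0.79 against 0.00666 over all genes. This group was drawn up after the values had been seen, so its counts are a description. Called among them were *RNU4ATAC* of the minor spliceosome, which read 5.53, 5.25 and 5.35 against 4.41, 4.59 and 4.64 (log2 change -0.83 ± 0.27), and *RNU4-2* of the major spliceosome, at -0.74. Both were dim with the ERRγ siRNA, with *RNU4ATAC* detected on 2 and *RNU4-2* on 1 of its 3 arrays, so neither size is exact. Without background correction *RNU4ATAC* differed by -0.25 and *RNU4-2* by -0.22, and in the authors' normalized table by -0.11 and -0.09. A U6 RNA known to the table as *RNU6-15* fell by 0.67, and *RN7SK*, which holds an elongation factor of RNA polymerase II inactive, differed by -0.99 without being called (adjusted p = 0.0595). The variant U1 RNA *RNVU1-18* differed by -1.30 (adjusted p = 0.0826). Copies of U1, U4 and U6 are nearly identical in sequence, so the probes may read each other's targets. In the wider class, 115 small nucleolar RNAs had 1 call (*SNORD13*; 0.269% of all genes were called), 72 members below 0 (48.4% of all genes) and a median log2 change of -0.06. Of 16 snoRNA host genes, 12 lay below 0 with a median of -0.16, from *SNHG9* up to *SNHG11* at 0.26. The ribosomal RNA probes disagreed with each other, *RNA18SN5* at -0.60 and *RNA28SN5* at 0.23, neither of them called. *RNU4-2*, *RNU6-15*, *RN7SK*, *RNVU1-18* and the ribosomal RNAs were chosen after their values were seen.

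Metallothioneins, small cysteine-rich proteins that bind zinc and copper, formed another group that was noticed after the values had been seen. *MT1G* read 8.26, 8.42 and 8.26 with the control siRNA and 6.5, 7.39 and 7.0 with the ERRγ siRNA, a log2 change of -1.35 ± 0.48 (adjusted p = 0.029, limma). ERRγ siRNA replicate 2 was the nearest to the controls. The other 6 members were not called but lay between -1.08 (*MT1A*) and -0.35 (*MT1E*), all 7 had groups that did not overlap (22.3% of all genes), and their median was -0.99. Replicate 2 was also the nearest for *MT2A*, which read 9.11, 9.34 and 9.51 against 7.83, 8.88 and 8.05. The genes are close paralogs, so their probes may share signal.

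The other named protein-coding genes that fell served many roles. *TDP1*, which frees topoisomerase I stuck on DNA, read 9.68, 9.72 and 9.73 against 8.52, 8.56 and 8.52, with little spread in either group (log2 change -1.17 ± 0.36, adjusted p = 0.022). Its 2 other probes, both dimmer, gave 0.26 and 0.05. *NPM3*, a nucleolar histone chaperone, read 9.26, 9.35 and 9.53 against 8.10, 8.60 and 8.25 and fell by 1.06. *LFNG*, a Golgi glycosyltransferase that modifies Notch receptors, fell by 0.94, from 7.04, 6.93 and 7.09 to 5.92, 6.10 and 6.22. *SFXN1*, which carries serine into mitochondria, fell by 0.89, from 7.98, 8.16 and 8.17 to 7.66, 6.88 and 7.11, with ERRγ siRNA replicate 1 closest to the controls. The antisense RNA *HDHD5-AS1* (log2 change -0.92 ± 0.32) and a phosphoinositide kinase listed under its older name *PIP5K2B* (-0.65 ± 0.20) also fell. Smaller falls, singled out after their values were seen, included DNA repair genes (*INIP* at -0.68 and *XRCC2* at -0.49), the nuclear RNA-binding protein gene *HNRNPU* (-0.62), *KRI1*, whose yeast counterpart takes part in making the small ribosomal subunit (-0.62), and *MFSD12*, which takes part in importing cysteine into lysosomes (-0.63). *HBZ*, an embryonic globin gene, and *APOA1*, the main protein of high-density lipoprotein, were called at -0.67 and -0.61 while detected on 1 and 2 of the 3 ERRγ siRNA arrays, so these sizes are not exact either. The remaining called names, *C21orf58*, *EHBP1L1*, *CFAP418*, *FLJ35390* and *FLJ44124*, lay between -0.77 and -0.48. Sizes in this paragraph depend on the scaling too, most of all for dim genes. In the authors' normalized table *LFNG* differed by -0.32, *HDHD5-AS1* by -0.30, *MFSD12* by -0.13, *APOA1* by -0.08 and *HBZ* by -0.07. There *NPM3* lay at -0.78 and *INIP* at -0.60, nearer to the values above.

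Only 2 named genes rose. *TMEM64*, which encodes a membrane protein, read 5.33, 5.18 and 5.25 with the control siRNA and 5.68, 5.77 and 5.89 with the ERRγ siRNA, a log2 change of 0.53 ± 0.19 (adjusted p = 0.0303, limma). *GOLGA7B* was not detected on any control siRNA array in vehicle and was detected on all 3 ERRγ siRNA arrays, where it read 5.15, 4.77 and 4.81. On this scaling it was at least 1.26-fold higher, taking for each control array the lowest signal among detected probes, or its own where higher (adjusted p = 0.0365, limma). Other scalings gave smaller rises, so that bound does not hold for them. The log2 changes of *GOLGA7B* and *TMEM64* were 0.05 and 0.11 in the authors' normalized table. Without background correction they were 0.17 and 0.20. The third called gene that was higher had only a number in place of a name.

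**Figure D2:**
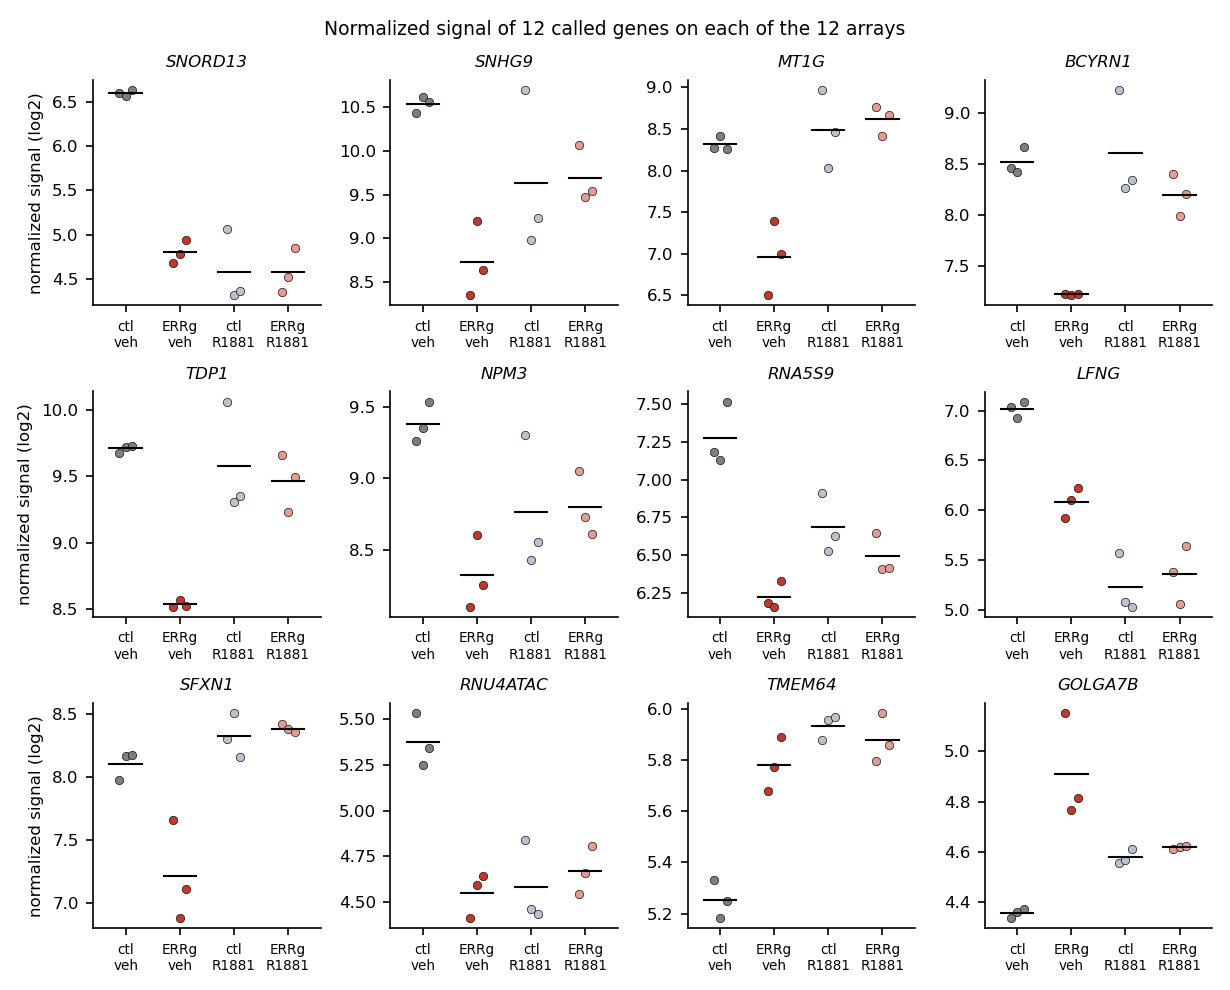
Each panel shows the normalized log2 signal of 1 called gene on the 12 arrays, with a point per array, a line at each group's mean and the groups in the order control siRNA in vehicle, ERRγ siRNA in vehicle, control siRNA in R1881 and ERRγ siRNA in R1881. In each of the 12 panels the vehicle groups do not overlap. For *SNORD13*, *RNA5S9*, *LFNG* and *RNU4ATAC* the R1881 arrays of both siRNAs lie below the control siRNA arrays in vehicle. The same holds for other called genes, *TRK1* and *HDHD5-AS1* among them.

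All 46 called genes had vehicle groups that did not overlap, as did 22.3% of all genes tested. Where a second probe for a called gene could be read, it did not repeat the size. Of the 46 genes, 8 had 9 other probes above the filter, 5 of these had the same sign and none reached 0.5 times the size of the chosen probe. For *TDP1* the other probes gave 0.26 (unadjusted p = 0.0195, limma) and 0.05 where the chosen probe gave -1.17. Those of *INIP* and *KRI1* gave 0.06 and 0.15, and that of *XRCC2* gave -0.06. For *HDHD5-AS1* the other probe gave -0.30 (unadjusted p = 0.0155), the only one of the 9 with the same sign and an unadjusted p under 0.05. For *TMEM64* it gave 0.004. The other probes were dimmer than the chosen ones, as the choice of the brightest probe fixes.

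The arrays treated with R1881 gave a measurement of the same siRNA on cells that share no array with the vehicle comparison. There the 43 genes that fell in vehicle had a median log2 change of 0.0256, from -0.51 to 0.27, with 18 of 43 below 0, none at 0.5 times its size in vehicle or more with the same sign, and 4 at an unadjusted p under 0.05. Of the 43, 36 were detected on all 6 R1881 arrays. For these the median was 0.0287, 14 lay below 0 and none reached 0.5 times its size in vehicle with the same sign. The other 7 were at or near background on some R1881 arrays, where a fall could be hidden. They included *SNORD13*, detected on 1 of 3 arrays with either siRNA, *RNU4-2* and *RNU4ATAC*, and *APOA1*, which was detected on none. *HBZ* was detected there on 3 control siRNA and 0 ERRγ siRNA arrays and differed by -0.28 (unadjusted p = 0.033, limma). Of the leading genes detected on all 6, *SNHG9* differed by 0.06, *MT1G* by 0.13 and *TDP1* by -0.11 in R1881. *BCYRN1* had the most negative value of the 12 leading genes in R1881 (-0.41, adjusted p = 0.82). By limma over all genes, none was called for the siRNA in R1881 (1048 genes, 6.12%, at an unadjusted p under 0.05, and a lowest adjusted p of 0.194), and none in any of the alternatives that left out an array.

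**Figure D3:**
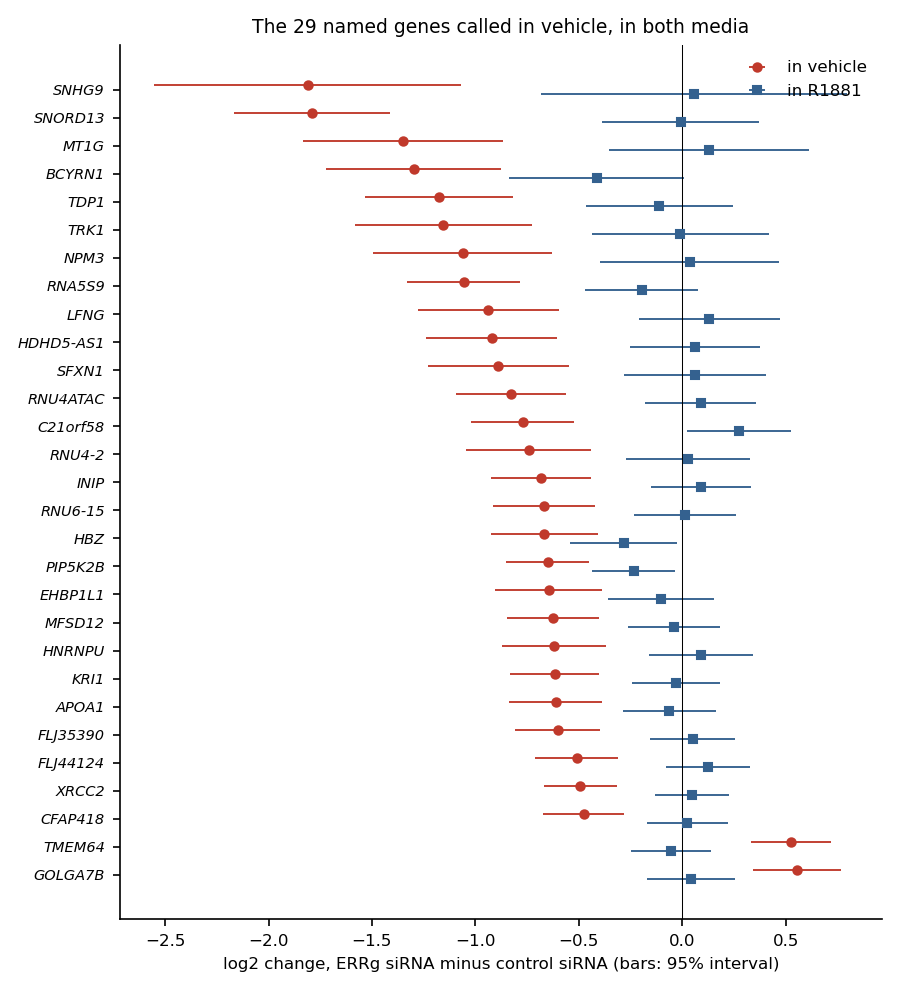
The 29 named genes called in vehicle are listed on the vertical axis, with the log2 change (ERRγ siRNA minus control siRNA) and its 95% interval in vehicle (red circles) and in R1881 (blue squares) on the horizontal axis. In vehicle the points lie from -1.81 to -0.48 for 27 genes and at 0.53 and 0.56 for *TMEM64* and *GOLGA7B*. In R1881 most intervals cross 0, and *SNORD13*, *RNU4-2*, *RNU4ATAC*, *APOA1*, *HBZ* and *GOLGA7B* were at or near background on some or all arrays.

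The difference between the effects in R1881 and in vehicle was tested directly, and its answer moved with a single array and with the scaling. With all 12 arrays no gene was called for the difference by limma (1893 genes, 11.1%, at an unadjusted p under 0.05). An offset of 50 gave 50 calls, no background correction 13, median centring and a trend in mean signal 2 each, and the authors' table and array weights 1 each. *SNORD13* had the lowest adjusted p, 0.0948, but its probe was near background in R1881, so its difference of 1.78 on the log2 scale largely restates the fall in vehicle. Without control siRNA replicate 1 in R1881, 175 genes were called, 164 of them with the more positive effect in R1881, and 31 of the 43 genes that fell in vehicle were among them. *SNHG9* then differed by 2.40 (adjusted p = 0.00434) and *MT1G* by 1.72 (adjusted p = 0.0169). Without any other array the count was 0, except 1 without ERRγ siRNA replicate 2 in vehicle. The array in question read 10.70 for *SNHG9*, 9.22 for *BCYRN1* and 10.06 for *TDP1*, where the other arrays of its group read 8.98 and 9.24, 8.26 and 8.34, and 9.31 and 9.35. These differences include the vehicle values by which the genes were picked.

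Set over all 12 arrays, the genes that fell in vehicle were high on the control siRNA arrays in vehicle, by which they were chosen. The mean deviation of the 43 genes from their own averages was 0.532, 0.549 and 0.597 for the control siRNA in vehicle and -0.394, -0.269 and -0.363 for the ERRγ siRNA in vehicle, a gap that the choice of genes fixes. It was 0.152, -0.269 and -0.203 for the control siRNA in R1881 and -0.055, -0.222 and -0.0553 for the ERRγ siRNA in R1881. The 12 deviations sum to 0, so the level of the R1881 values follows in part from the choice, and only the differences among them do not. The small nuclear RNAs were likewise highest on the control siRNA arrays in vehicle, at 0.643, 0.503 and 0.47 against -0.356, -0.12 and -0.244 in vehicle and 0.201, -0.366 and -0.196 for the control siRNA in R1881. For the metallothioneins the arrays with the ERRγ siRNA in R1881, at 0.166, 0.209 and 0.302, lay at the level of the vehicle controls (0.171, 0.322 and 0.165). Control siRNA replicates 1 and 2 in R1881 stood apart from each other in all these groups. The second principal component (7.18% of the variance) set the vehicle groups apart, at 5.91 to 15.3 with the control siRNA and -19 to -4.15 with the ERRγ siRNA, and spread the control siRNA arrays in R1881 just as far, from -16.2 to 14. What that axis adds to the vehicle result was not tested.

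**Figure D4:**
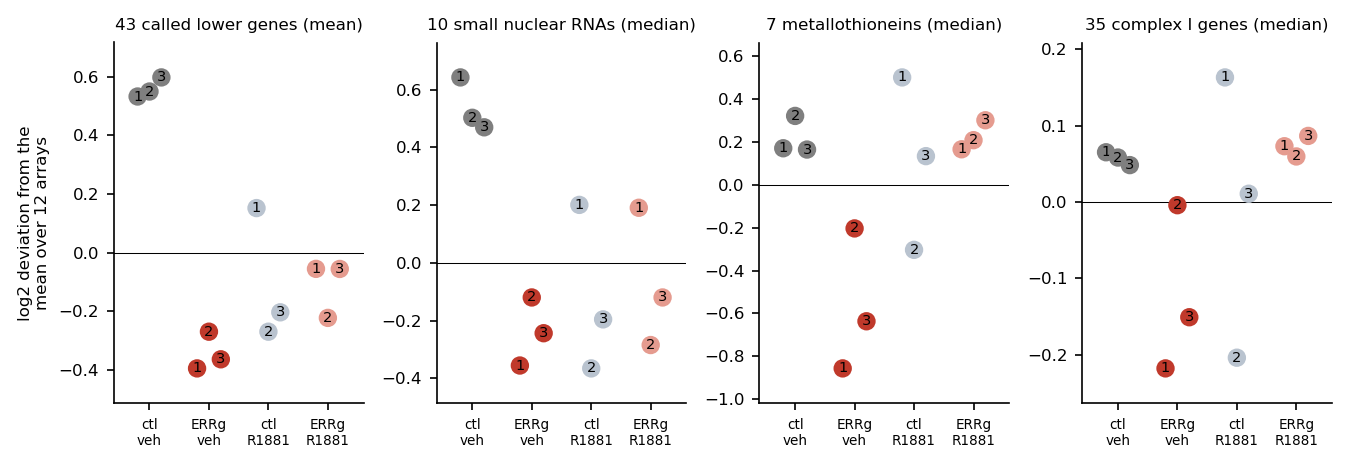
Numbers in circles are replicates, placed by the log2 deviation of a gene group from its mean over the 12 arrays, for the mean of the 43 genes called lower in vehicle and the medians of 10 small nuclear RNAs, 7 metallothioneins and 35 complex I genes. The 3 control siRNA arrays in vehicle lie above the 3 ERRγ siRNA arrays in each panel, and control siRNA replicates 1 and 2 in R1881 lie apart in each panel.

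The list of genes that ERR proteins and PGC-1 are known to drive held no called member. Of 69 tested, 0 were called (0.269% of all genes) and 34 lay below 0 (48.4% of all genes). At an unadjusted p under 0.05, 14 were higher and 8 lower (6.97% and 8.54% of all genes). The median log2 change was 0.00778. Over the alternatives that median ran from -0.0368, with median centring, to 0.0557. Members lay on both sides of 0: *NDUFB7* of complex I lay at -0.51 and *COX8A* of complex IV at -0.43, whereas *SDHD* of complex II lay at 0.41, *IDH3A* of the TCA cycle at 0.36 and *ACADM*, an enzyme of fatty acid oxidation, at 0.30, with adjusted p-values from 0.157 to 0.213.

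The DNA element bound by ERR monomers holds the letters AAGGTCA, often as TCAAGGTCA. RefSeq promoter sequences (assembly GRCh38.p14, 250 bases before to 50 after each start, several starts for some genes) were at hand for 9943 tested genes, 59 of the ERR and PGC-1 targets and 12 of the called genes. On either strand AAGGTCA was in the promoters of 3.88% of the tested genes, 11.9% of the targets (7 of 59) and 0 of the 12 called genes. The longer TCAAGGTCA, which contains the shorter motif, was in 0.282%, 3.39% (2 of 59) and again 0 of 12. At shares this low over the tested genes, 0 of 12 cannot show whether the called genes differ from them. The 6 windows below are those of target genes with the match upstream of a start, shown because they hold the receptor's known letters while the genes' signals went either way. Capitals mark the motif, each read 5′ to 3′ on the strand where it reads AAGGTCA.
NDUFB4 (chr3:120596286-120596314, plus strand): tcctgaagctgAAGGTCAgcatagacaaa
NDUFS7 (chr19:1383725-1383753, minus strand): cccgaggcggaAAGGTCAtcggagtgcgc
CKMT1A (chr15:43692622-43692650, plus strand): ctaccaggacaAAGGTCAaatcatacctg
CKMT1A (chr15:43693345-43693373, minus strand): cccactggctcAAGGTCAccttttcctta
SDHB (chr1:17054239-17054267, minus strand): ccctttctgagAAGGTCAcgggggaagcc
TIMM44 (chr19:7943655-7943683, minus strand): cgcgccgcgagAAGGTCAcacgattctcc

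Among these genes, the complex I genes *NDUFB4* and *NDUFS7* had log2 changes of -0.50 and -0.35 (adjusted p = 0.22 and 0.168, limma). *CKMT1A*, a mitochondrial creatine kinase with a near-identical neighbour, had 0.32 (adjusted p = 0.139), and its window on the minus strand is the only one of the 6 with TCAAGGTCA. *SDHB* of complex II and *TIMM44* of the mitochondrial import machinery had 0.12 and 0.14. The matches of *COX8A* and *SDHD* lay after the start. None was called, and in R1881 *NDUFB4* stood at 0.39 and *CKMT1A* at 0.12. A match in these windows is a run of letters and does not show that the receptor binds there.

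Complex I is the respiratory chain's entry point for electrons from NADH. It had the lowest median among the lists of at least 15 tested genes, at -0.17 over 35 genes. None of the 35 was called (0.269% of all genes). Of these, 28 lay below 0, 15 were lower and 0 higher at an unadjusted p under 0.05 (8.54% and 6.97% of all genes), and 19 had groups that did not overlap (22.3% of all genes). *NDUFA3*, an accessory subunit, was lowest: it read 11.82, 11.91 and 11.92 with the control siRNA and 10.26, 11.25 and 10.65 with the ERRγ siRNA, a log2 change of -1.17 with an adjusted p of 0.103 (limma). *NDUFC1* read 9.12, 9.32 and 9.28 against 8.22, 9.09 and 8.48, and *NDUFA7* read 9.99, 9.92 and 10.11 against 9.18, 9.83 and 9.37. In all 3 genes ERRγ siRNA replicate 1 was lowest and replicate 2 nearest to the controls. Core subunits, those that carry out the electron transfer, lay on both sides of 0, with *NDUFV1* at 0.06 and *NDUFV2* at 0.07 beside *NDUFS7* at -0.35 and *NDUFS8* at -0.32. *NDUFB5* was highest, at 0.23. Replicate by replicate, the list's median deviation was 0.065, 0.0581 and 0.0482 with the control siRNA and -0.218, -0.00432 and -0.151 with the ERRγ siRNA, a spread narrower than that of the control siRNA in R1881 (0.163, -0.204 and 0.0107). In R1881 the list's median effect was 0.11.

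The other lists of mitochondrial energy metabolism held no called member either, where 0.269% of all genes were called. Over 31 genes of complexes II to IV the median was -0.06, from *COX17*, a copper chaperone, at -0.46 to *SDHD* at 0.41. Over 18 ATP synthase genes it was -0.02, from *ATP5ME* at -1.04 (adjusted p = 0.0997) to *ATP5F1C* at 0.34, with 4 members higher and 3 lower at an unadjusted p under 0.05 (6.97% and 8.54% of all genes). The median was 0.09 for the TCA cycle and pyruvate entry (38 genes, 8 higher and 0 lower at an unadjusted p under 0.05) and 0.07 for fatty acid oxidation (32 genes, 5 higher and 4 lower). Glycolysis, at a median of 0.08 over 23 genes, had 5 higher and 0 lower at that p (again beside 6.97% and 8.54% of all genes), with *LDHA*, which makes lactate, highest at 0.42 (adjusted p = 0.133).

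Among the other lists, mitosis had the highest median, 0.14 over 51 genes, with 11 higher and 0 lower at an unadjusted p under 0.05 (6.97% and 8.54% of all genes, as for the lists that follow) and *CDK1*, the kinase that starts mitosis, highest at 0.50 (adjusted p = 0.139). The cell cycle list of CDK inhibitors and cyclins ran from *CDKN2A* at -0.54 to *CDKN1B* at 0.37, and the p53 target *ZMAT3* lay at -0.57 (adjusted p = 0.0694). The lists that bear on siRNA delivery itself held no call (0.269% of all genes). The interferon response had a median of -0.04 over 34 genes, with 1 higher and 5 lower at an unadjusted p under 0.05. The RNA interference machinery had -0.03 over 16, with 0 and 0. Androgen-induced genes had a median of 0.08 over 46, with 4 higher and 0 lower. *KLK3*, which encodes prostate-specific antigen, read 5.75, 5.45 and 5.48 against 6.00, 5.44 and 5.84 (log2 change 0.21 ± 0.30), and *FKBP5*, a chaperone of steroid receptors, changed by 0.07 ± 0.20. The groups of both genes overlapped.

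**Figure D5:**
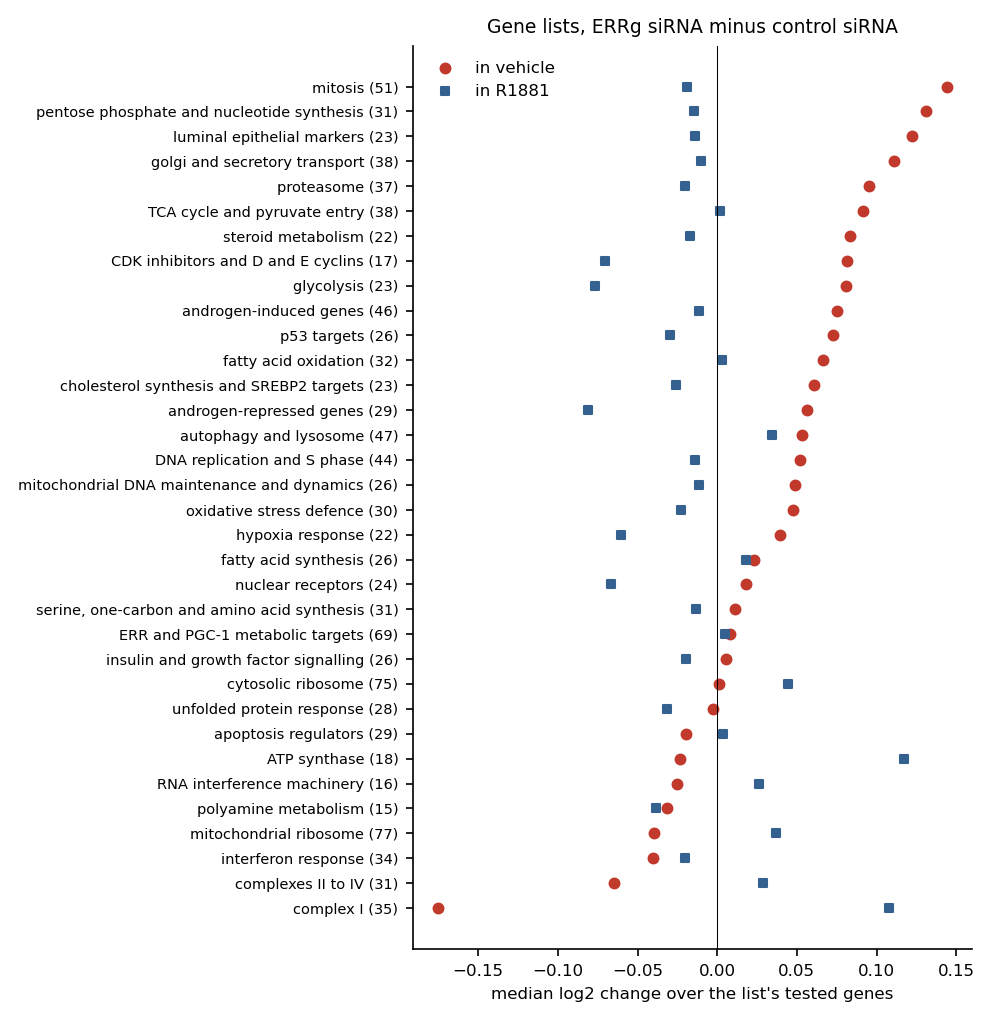
Each row is 1 of the 34 lists with at least 15 tested genes (number in brackets), and the points are the median log2 change of its genes, ERRγ siRNA minus control siRNA, in vehicle (red circles) and in R1881 (blue squares). In vehicle the medians run from -0.17 for complex I to 0.14 for mitosis, and no list holds a called gene in either medium.

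A short set of cell type markers was read on the 6 vehicle arrays. The luminal markers *KRT8*, *KRT18*, *EPCAM*, *HOXB13*, *FOXA1* and *FOLH1* were detected on all 6. The basal markers *KRT5*, *KRT14* and *TP63* and the neuroendocrine markers *CHGA* and *SYP* were detected on none. Other members of the longer lists did pass the detection filter over the whole series. They were the basal markers *KRT6A*, *CAV1*, *LAMA3* and *LAMB3* and the neuroendocrine markers *NTS*, *ENO2*, *VGF*, *INSM1*, *SYT11* and *DDC*. The short set therefore does not show that the cultures lacked basal or neuroendocrine transcripts. Of 4 stromal markers, *VIM* and *COL1A1* were detected on all 6 and *COL1A2* and *DCN* on none, and of 3 immune markers *CD14* was detected on 2 arrays and *CD3E* on 1. Between 18698 and 20536 probes were detected on an array, raw signals had medians of 93.86 to 101.1, and arrays of a group correlated at 0.99 to 0.9951. With 3 arrays a group limiting the precision, the half-width of the 95% interval of a log2 change had a median of 0.253.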

How the data were processed

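RNA of 12 LNCaP samples in 4 groups of 3 was labelled with Cy3 and read on bead arrays of 47323 probes. The authors deposited a raw intensity and a detection p-value for each probe and array, per the file headers. Another deposited table holds the authors' log2 values, normalized by a method not given in the sources read for this work. The probes come without a genome build, so no positions are given for them.

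Background correction of the raw signals used limma's nec (offset 16, background read from the detection p-values) and was followed by quantile normalization (limma 3.58.1 in R 4.3.3). The 92 spike-in probes were left out. Probes with a detection p-value under 0.05 on at least 3 of 12 arrays were kept (21959). Probes were named by RefSeq accession (28588), current symbol (2477) or, for 16258, the name as deposited, and the probe with the highest mean signal stood for each of 17123 genes. A linear model with a mean for each group (8 residual degrees of freedom) was fitted with lmFit and eBayes, and p-values were adjusted by Benjamini-Hochberg over all genes. Genes were called at an adjusted p under 0.05. The fit was tested on simulated data.

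By rule, the text names the 12 highest and 12 lowest called genes with groups that do not overlap, up to 3 called members per direction and list, the 5 lowest p-values per direction, the ends of lists without calls, and *ESRRG*, *ESRRA*, *ESRRB*, *PPARGC1A*, *PPARGC1B*, *KLK3* and *FKBP5*. Members named within lists beside the lowest and highest were chosen after their values were seen. Genes with only a LOC or HS. number were counted, not named. The comparison, the members and the lists were chosen with earlier results of these data known, and counts over lists are descriptions without a test. Files and labels name no chip, scan or batch.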

Additional observations from a re-analysis of the deposited data

How the results depend on the processing

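The count of genes called in vehicle moved with most settings. All 46 called genes kept their sign in each of the 23 alternatives, but many of these could not have changed it. Their vehicle groups did not overlap, so leaving out 1 array could not turn a sign, and several other settings leave the log2 change as it was. The calls (higher and lower) were 2 and 24 with no filter on detection, 5 and 50 with detection on all 3 arrays of a group, 175 and 307 without background correction, 129 and 311 with an offset of 50, 2 and 132 with median centring, 67 and 112 in the authors' table, 4 and 127 with only the 6 arrays compared, 50 and 192 with array weights, 97 and 302 with a trend in mean signal, and 3 and 33 with the mean of kept probes. The cause of these moves was not tested. Leaving out 1 array at a time gave 0 to 19 higher and 1 to 173 lower calls. *SNORD13* was called in all 23 alternatives (log2 change -1.86 to -0.40, highest adjusted p 0.0228) and *RNA5S9* in 22. Of 667 values computed for the called named genes, 434 stayed past the threshold and 233 did not. That 0 changed sign carries the same limit. The siRNA had 0 calls in R1881 in each alternative. The difference of the effects, with 0 calls, had 13 without background correction, 50 with an offset of 50, 2 with median centring, 1 in the authors' table, 1 with array weights, 2 with a trend, and 0 to 175 with 1 array left out.

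The median of complex I stayed between -0.27 and -0.12, that of the small nuclear RNAs between -0.84 and -0.19 and that of the metallothioneins between -1.25 and -0.70. Of 897 list medians 32 moved by more than the spread between replicates, and the authors' table gave smaller changes for dim genes (*SNORD13* at -0.40).

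The replicate numbers gave little sign of pairing. In their deviations from the group means, same-numbered arrays correlated at 0.065, 0.027 and -0.013 in vehicle and at 0.094, 0.13 and 0.018 in R1881. With the replicate block 0 genes were called higher and 6 lower. The fits without an R1881 array were chosen after seeing the data. Signals near background limit what can be said of dim genes, *ESRRG* above all.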

Other observations

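Differences of at least 2-fold that missed the threshold were all towards lower signal. Of the 42 genes at least 2-fold lower in vehicle, 15 were protein-coding, 4 small nucleolar RNAs, 2 small nuclear RNAs, 2 long non-coding RNAs and 1 a ribosomal RNA and 1 the lysine tRNA, and 17 had only a LOC or HS. number. The 17123 tested genes held 11958 protein-coding genes, 115 small nucleolar RNAs, 10 small nuclear RNAs, 159 long non-coding RNAs and 3 ribosomal RNAs, and 13054 of them had a name. *NRDE2*, which encodes a nuclear RNA-processing factor, differed by -1.45 (adjusted p = 0.0756, limma) and was the lowest protein-coding value. *SNORD104* differed by -1.44 and *UQCC5*, an assembly factor of complex III, by -1.38. *ROMO1* and *DPM3*, which encode small membrane proteins of mitochondria and the endoplasmic reticulum, differed by -1.11 and -1.07. The histone H4 genes *H4C12* and *H4C3* differed by -1.25 and -1.02, while 40 replication-dependent histone genes had a median of 0.02. None of these was called, and they were chosen after their values were seen.

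The other lists with high medians in vehicle were pentose phosphate and nucleotide synthesis (0.13 over 31 genes), luminal epithelial markers (0.12 over 23) and Golgi and secretory transport (0.11 over 38, with 8 higher and 1 lower at an unadjusted p under 0.05, beside 6.97% and 8.54% of all genes). In R1881 their medians were -0.01 each. The 75 cytosolic ribosome genes had a median of 0.001, from *RPS28* at -0.98 (adjusted p = 0.0861) to *RPS4X* at 0.44 (adjusted p = 0.126). The 77 mitochondrial ribosome genes had a median of -0.04, from *MRPL53* at -0.75 to *MRPL48* at 0.42, with 9 higher and 9 lower at an unadjusted p under 0.05.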
